A study of Mus musculus with 4 samples.

Results

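The response of wild-type macrophages to lipopolysaccharide (LPS), the outer-membrane glycolipid of Gram-negative bacteria, was read from 2 arrays, 1 of LPS-treated and 1 of unstimulated cells. For each gene the level was the log2 intensity of its probe set, a group of short probes against 1 transcript, and the response was the LPS array minus the unstimulated array, so that 1 is a 2-fold difference. A gene was represented by the brightest of the probe sets that name only that gene, ranked by the mean of the 4 arrays of the series. A gene was described where it reached log2 6, the floor, in the higher of the 2 wild-type arrays. This held for 8627 of 18193 genes, and the other 9566 lay under the floor on both arrays. The values nearest the floor were those of Gstm5, just inside at 6.0001 in its higher array, and Nrg4, just outside at 5.996.

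The cells were bone marrow macrophages, grown from mouse marrow for 5 days with M-CSF, the growth factor that drives macrophage differentiation. The wild-type cells were either left unstimulated or treated with LPS (100 ng/ml) over 4 h. The series held 1 further array of unstimulated cells and 1 of cells given the same LPS treatment from Jmjd3-/- mice, called knockout here, which lack the histone demethylase encoded by Kdm6b. Strain, age, the deleted part of the gene and the number of animals are not stated in the labels used, and no group had a second array. Sizes are therefore described without a test, and "higher" and "lower" compare single arrays with no replicate check. As the only error that the arrays themselves show, the differences of separate probe sets of 1 gene had a median standard deviation of 0.22 over 3563 genes and a 90th percentile of 0.70, which covers probe design and not variation between cultures.

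LPS is bound by CD14 and by the receptor complex of TLR4 and MD-2. From there the adaptor MyD88 leads to NF-kB and MAP kinases and so to inflammatory cytokines, while the adaptor TRIF leads to interferon beta, which acts back on the cell and switches on antiviral genes. Inhibitors made in the course of the response, such as IkB proteins, SOCS proteins and dual-specificity phosphatases, limit it, and LPS is known to halt the division of macrophages that grow in M-CSF.

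Of the 8627 genes, 851 (9.86%) stood at least 2-fold higher in the LPS array and 1233 (14.3%) at least 2-fold lower. The remaining 6543 lay within 2-fold. At 4-fold or more the balance turned, with 344 higher (3.99%) and 237 lower (2.75%). At 8-fold or more there were 150 against 43, and at 16-fold or more 48 against 3. Large differences were thus mostly on the higher side, and the more numerous lower genes differed by less. Of the higher genes 228 read under the floor without LPS, and of the lower genes 434 read under it with LPS, so that the size of these differences rests on a background reading at 1 end. The median of all 8627 differences was -0.19, and -0.07 after each array was centred on its median over these genes, and list medians are to be read against it.

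**Figure D1:**
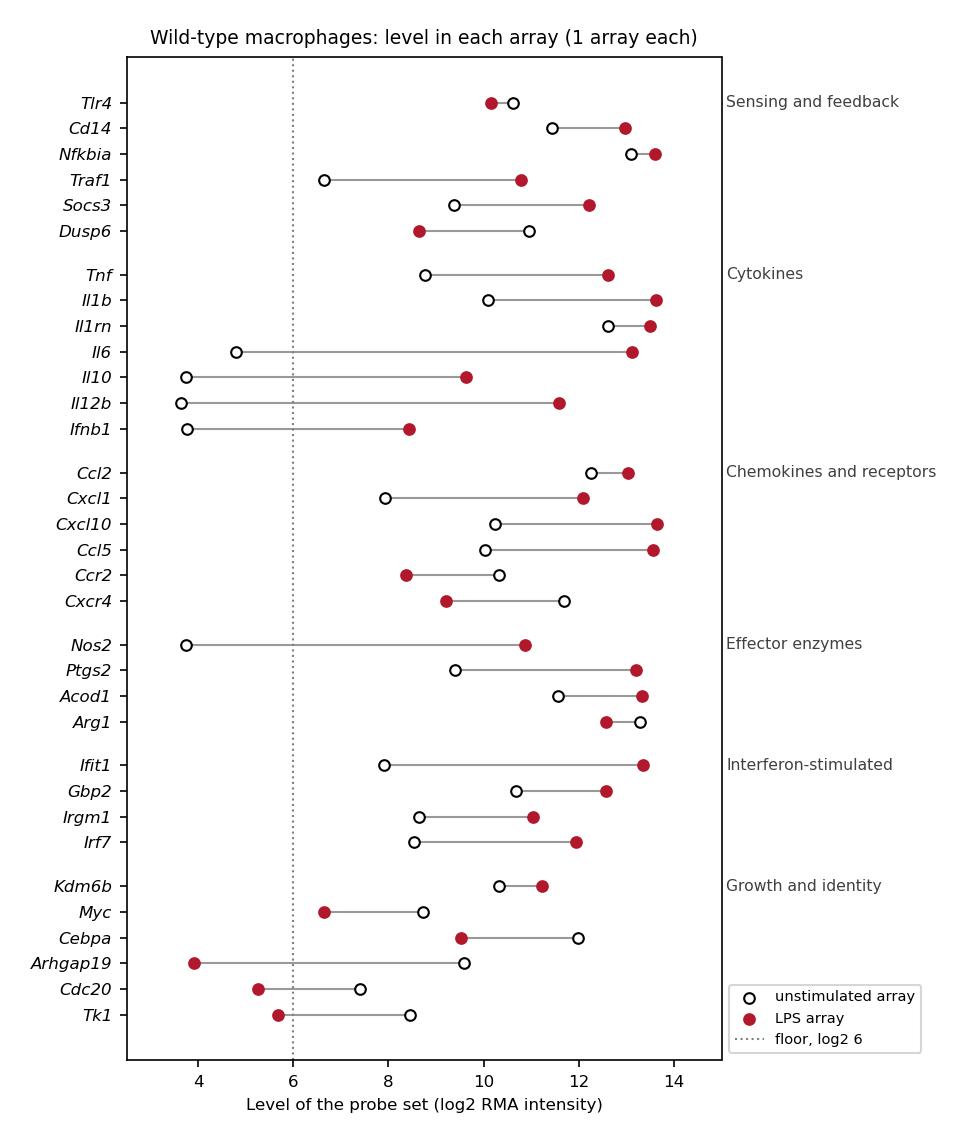
Level of chosen genes in the unstimulated array (open points) and the LPS array (filled points) of wild-type cells, as log2 RMA intensity, 1 array each, with the floor of log2 6 as a dotted line. Il6, Il12b, Il10, Ifnb1 and Nos2 start under the floor and end above it, whereas Arhgap19, Cdc20 and Tk1 do the reverse.

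Stretches of upstream sequence are shown for 10 genes, taken from RefSeq on GRCm38.p6, because they carry the motifs whose shares among promoters are given with the promoter results. Each is the 150 bases before the annotated start of transcription, written along the strand of the gene, and the examples were picked after the matches had been seen. In the first 3 the capitals mark GGGA and TCC separated by any 3 bases, the core of an NF-kB-like site, on either strand. Il6 is at chr5:30012964-30013113 on the plus strand, Cxcl1 at chr5:90891095-90891244 on the plus strand and Ifnb1 at chr4:88522795-88522944 on the minus strand.
Il6: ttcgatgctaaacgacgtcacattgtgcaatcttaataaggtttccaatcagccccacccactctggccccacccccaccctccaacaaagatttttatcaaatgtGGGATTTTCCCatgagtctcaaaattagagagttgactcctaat
Cxcl1: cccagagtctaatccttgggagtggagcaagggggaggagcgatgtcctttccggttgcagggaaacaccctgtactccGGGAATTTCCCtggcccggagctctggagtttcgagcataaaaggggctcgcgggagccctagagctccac
Ifnb1: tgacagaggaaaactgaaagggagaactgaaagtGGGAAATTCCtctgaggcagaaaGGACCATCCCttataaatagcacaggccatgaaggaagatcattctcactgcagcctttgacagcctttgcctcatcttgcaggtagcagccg
The match of Il6 begins 44 bases before the start and that of Cxcl1 71 bases before it, each with an overlapping match on the other strand. Ifnb1 has 1 match on each strand, 116 and 93 bases before the start.

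In the next 3 stretches, from an antiviral gene and from GTPase genes, the capitals mark GAAA and GAAA separated by any 2 bases, on either strand, the repeat found in interferon-stimulated response elements. Ifit1 is at chr19:34640739-34640888 on the plus strand, Irgm1 at chr11:48871421-48871570 on the minus strand and Gbp2 at chr3:142620513-142620662 on the plus strand.
Ifit1: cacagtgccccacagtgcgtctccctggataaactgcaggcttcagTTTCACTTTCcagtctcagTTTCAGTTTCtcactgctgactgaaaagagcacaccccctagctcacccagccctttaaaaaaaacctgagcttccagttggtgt
Irgm1: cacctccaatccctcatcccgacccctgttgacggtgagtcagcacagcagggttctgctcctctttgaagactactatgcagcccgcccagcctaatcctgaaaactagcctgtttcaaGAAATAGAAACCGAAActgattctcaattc
Gbp2: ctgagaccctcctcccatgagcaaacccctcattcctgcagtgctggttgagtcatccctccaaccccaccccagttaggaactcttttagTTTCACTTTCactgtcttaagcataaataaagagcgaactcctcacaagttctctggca
Ifit1 has 2 matches, 104 and 85 bases before the start, Irgm1 has 2 that overlap, 30 and 24 bases before it, and Gbp2 has 1, 59 bases before it.

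In the last 4, from genes of cell division, the capitals mark CCAAT, the letters bound by NF-Y, and TTTGAA, the cell cycle genes homology region (CHR), both on either strand. Arhgap19 is at chr19:41802085-41802234 on the minus strand, Kif11 at chr19:37376232-37376381 on the plus strand, Top2a at chr11:99024190-99024339 on the minus strand and Cdc20 at chr4:118437344-118437493 on the minus strand.
Arhgap19: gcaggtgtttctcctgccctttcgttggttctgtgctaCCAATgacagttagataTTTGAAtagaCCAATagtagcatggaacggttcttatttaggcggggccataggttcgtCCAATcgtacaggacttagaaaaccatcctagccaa
Kif11: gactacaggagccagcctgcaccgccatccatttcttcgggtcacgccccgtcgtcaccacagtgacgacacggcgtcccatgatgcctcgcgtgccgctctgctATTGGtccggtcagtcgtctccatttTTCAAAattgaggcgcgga
Top2a: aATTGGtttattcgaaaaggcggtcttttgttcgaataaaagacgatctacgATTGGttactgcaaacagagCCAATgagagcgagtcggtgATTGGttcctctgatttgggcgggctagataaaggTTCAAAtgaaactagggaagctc
Cdc20: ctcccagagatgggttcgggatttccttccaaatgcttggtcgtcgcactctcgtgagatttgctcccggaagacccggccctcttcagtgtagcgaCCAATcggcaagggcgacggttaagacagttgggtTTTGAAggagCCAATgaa
The TTTGAA match of Cdc20 begins 18 bases before the start, that of Kif11 19, that of Top2a 23 and that of Arhgap19 95.

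The sensing apparatus was present without LPS, and its parts differed in unlike directions. Tlr4, the LPS receptor, read 10.61 unstimulated and 10.15 with LPS, a difference of -0.47, and its 3 probe sets past the floor lay between -0.77 and -0.07. Its partner Ly96, which encodes MD-2, differed by -0.28. Cd14, the co-receptor that hands LPS to them, went from 11.45 to 12.98. Receptors for other ligands were among those higher by 2-fold or more: Tlr3, which senses double-stranded RNA, by 2.55, Tlr6 by 1.40, Tlr7 by 1.30 and Tlr2 by 1.13. Tlr13, which senses bacterial ribosomal RNA, differed by -0.89. Of the 26 genes of LPS sensing and Toll-like receptor signalling past the floor, 10 stood higher by 2-fold or more and none lower, with a median of 0.81. The largest difference in this list was that of Peli1, a ubiquitin ligase of the pathway, which read 8.75 and 11.37, and the next signalling gene was Irak3, the inhibitory kinase-like protein, at 1.93. Both adaptors were higher, Myd88 by 1.37 and Ticam1, which encodes TRIF, by 1.46.

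Among 25 NF-kB subunits and inhibitors 16 were higher by 2-fold or more, none was lower, and the median was 1.35. Rel, the subunit of lymphoid and myeloid cells, went from 6.06 to 9.55, and Nfkb2 from 7.78 to 10.77. Relb was higher by 1.43 and Rela by 1.35. Traf1, an NF-kB target and adaptor of TNF receptors, had the largest difference of the list, from 6.64 to 10.79. Inhibitors and negative regulators stood on the same side: Nfkbiz (3.55), which encodes a nuclear IkB protein, Zc3h12a (2.57), an RNase that degrades cytokine messages, and Tnfaip3 (2.31), the A20 deubiquitinase. Nfkbia, which encodes IkB alpha, was already at 13.09 and read 13.60 with LPS, and its 5 probe sets differed by 0.51 to 1.65. Otulin (-0.25) was the only member with a negative difference.

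The feedback list split. Of 27 genes for SOCS proteins, phosphatases and RNA-binding repressors, 7 (25.9%) stood higher by 2-fold or more and 8 (29.6%) lower, with a median of 0.18. Socs3, the inhibitor of cytokine receptor signalling, went from 9.39 to 12.22, while Socs2, the growth hormone pathway member, went from 10.93 to 8.71. Among dual-specificity phosphatases Dusp4 was higher by 2.18 and Dusp16 by 1.73, whereas Dusp6, which acts on ERK, read 10.95 and 8.65. Dusp3 differed by -1.74. Zfp36, which encodes the message-destabilising protein tristetraprolin, was higher by 1.51, and its paralogs Zfp36l1 and Zfp36l2 differed by -1.75 and -1.74. Dusp1 was at 12.02 without LPS and 12.48 with it. Inpp5d, the SHIP1 lipid phosphatase, was the lowest at -2.35.

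Cytokine genes held the largest values of the response. Of 37 measured, 31 passed the floor, and 24 of these lay higher by 2-fold or more, with none lower. The median was 2.84 over those that passed and 2.33 over all measured, and 12 of the 31 read under the floor without LPS and so passed through the LPS array alone. Il6 and Il12b, the genes furthest apart, read 8.32 and 7.95 higher. The level of Il6 in the LPS array was 139-fold above the floor itself and that of Il12b 47.8-fold. Il10, which restrains inflammation, went from 3.74 to 9.62, Il33 from 4.70 to 10.42 and Ifnb1, the interferon of the TRIF branch, from 3.76 to 8.44. Tnf was readable in both arrays, at 8.78 and 12.62, and so was Il1b (10.09 and 13.63). Il1a was higher by 3.04. Il15, a growth factor of NK and memory T cells, went from 6.34 to 11.02. Its receptor chain Il15ra, outside the lists, went from 5.87 to 10.46.

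The genes for the partners of Il12b also read under the floor without LPS. Il12a, which pairs with it in 1 cytokine, went from 3.88 to 8.25 and Il23a, which pairs with it in another, from 4.09 to 7.15. Among growth and repair factors Edn1, the endothelin gene, differed by 5.52, Ereg, an EGF receptor ligand, by 3.99, Lif by 3.35 and Inhba, the activin A subunit, by 2.84. Fst, which encodes the activin-binding protein follistatin and stood outside the lists, went from 5.62 to 10.24. The 7 members within 2-fold were Il1rn (0.88), the receptor antagonist, Lta (0.77), Csf1 (0.68), Ebi3 (0.64), Vegfa (0.10), Tgfb1 (-0.07) and Igf1 (-0.42). Of these Il1rn (12.61) and Igf1 (12.01) already read above 12 without LPS, and both depended on the probe set, with 0.88 to 2.16 over 3 probe sets of Il1rn and -1.28 to -0.42 over 4 of Igf1.

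Of 23 chemokine genes past the floor, 13 lay higher by 2-fold or more and none lower, with a median of 1.25 (0.88 over the 28 measured). Cxcl11, a ligand of CXCR3, went from 4.79 to 11.70, and the other ligands of that receptor, Cxcl9 and Cxcl10, from 7.69 to 11.36 and from 10.24 to 13.64. Cxcl1, a neutrophil attractant, went from 7.94 to 12.09, and its 3 probe sets agreed within 4.15 to 4.41. Ccl5 read 10.03 and 13.57. Several chemokine genes were bright without LPS: Ccl3 read 12.33 and 13.58, Ccl2, which attracts monocytes, 12.26 and 13.03, Ccl9 13.24 and 13.40, and Ccl6 14.07 and 13.96. Cxcl14 (-0.94) and Ccl24 (-0.66) had the lowest differences.

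Their receptors had more lower than higher members. Of 19 receptors for chemokines and other attractants 4 lay higher and 8 lower by 2-fold or more, with a median of -0.66 (-0.32 over the 25 measured). The other 7 lay within 2-fold. Of the 19, 3 passed the floor through the unstimulated array alone and had to read lower. Ccr2, the receptor through which monocytes follow Ccl2, went from 10.32 to 8.38, and its 4 probe sets lay between -2.37 and -1.94. Cxcr4 went from 11.69 to 9.21, and Cx3cr1, the fractalkine receptor, from 7.33 to 5.38, under the floor. The lowest were Cnr2 (-3.74), the cannabinoid receptor of leukocytes, and Gpr65 (-2.73), an acid-sensing receptor. On the higher side were Ccrl2 (7.21 to 11.98), a receptor that presents chemerin, Ccr7 (6.17 to 9.64), which guides cells to lymph nodes, Gpr84 (1.87) and Fpr2 (1.55).

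Antiviral interferon-stimulated genes stood on 1 side. All 54 past the floor read higher with LPS, 45 of them by 2-fold or more, with a median of 2.77, and 4 of the 54 were under the floor without LPS. The Ifit genes, which encode proteins that bind foreign RNA, were among the highest: Ifit1 went from 7.92 to 13.35, Ifit3 from 7.89 to 13.05 and Ifit2 from 9.24 to 13.36. Mx2 went from 4.20 to 9.90 and Mx1, also a dynamin-like GTPase, from 9.83 to 13.30. Cmpk2, a mitochondrial nucleotide kinase, read 6.68 and 12.21, and its neighbour Rsad2, the viperin gene, 10.64 and 14.04. RNA sensors of the cytosol were higher too, Ifih1 (MDA5) by 4.25, Ddx58 (RIG-I) by 3.12 and Dhx58 (LGP2) by 3.35, as was Usp18, the protease that damps interferon signalling, by 4.85. The Ifit, Oas and Slfn families hold near-identical copies, and how far a probe set separates them is uncertain.

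The 9 members within 2-fold were Dtx3l (0.96), Trim25 (0.81), Psmb9 (0.81), Ifitm1 (0.61), Ifitm3 (0.57), Ifi27l2a (0.49), Ifitm2 (0.45), Psmb8 (0.40) and Psme1 (0.31). They included every Ifitm gene past the floor, which encode membrane proteins that block viral entry, and the proteasome genes Psmb8, Psmb9 and Psme1. Each of them read between 9.77 (Ifitm1) and 12.59 (Ifitm3) without LPS. Interferon-inducible GTPases, which attack the vacuoles of intracellular pathogens, numbered 10, of which 8 were 2-fold or more higher with a median of 2.35. Igtp (2.56), Gbp2b (2.51), Irgm1 (2.40), Iigp1 (2.39), Gbp6 (2.37) and Gbp3 (2.33) lay close together. Gbp7 (0.93) and Gbp8 (0.08) lay within 2-fold, but the other probe set of Gbp7 differed by 2.02, and the Gbp copies may share probes.

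The factors and kinases that serve interferon were part of the response. Of 26 interferon regulatory factor, STAT, receptor and kinase genes 14 lay higher and 2 lower by 2-fold or more, with a median of 1.05. That median was 0.63 with the mean of the probe sets of each gene. Irf7, which amplifies interferon production, went from 8.55 to 11.93, and Stat2, a subunit of the factor that binds interferon response elements, from 7.72 to 10.19. Irf9, which encodes a partner of STAT2, was higher by 1.24 and Irf1 by 1.01. Irf3 (-0.17), which needs phosphorylation and not new message to act, and Ifnar1 (0.42), the interferon receptor, lay within 2-fold. Jak2 (10.73 to 12.66) and Stat3 (8.40 to 9.96), which serve cytokine receptors, were higher. Batf2 was higher by 2.71 and Batf by 1.34, while their relative Batf3, a factor of dendritic cell development, went from 7.71 to 6.28. The chains of the interferon gamma receptor went apart, Ifngr2 by 1.09 and Ifngr1 by -1.05.

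**Figure D2:**
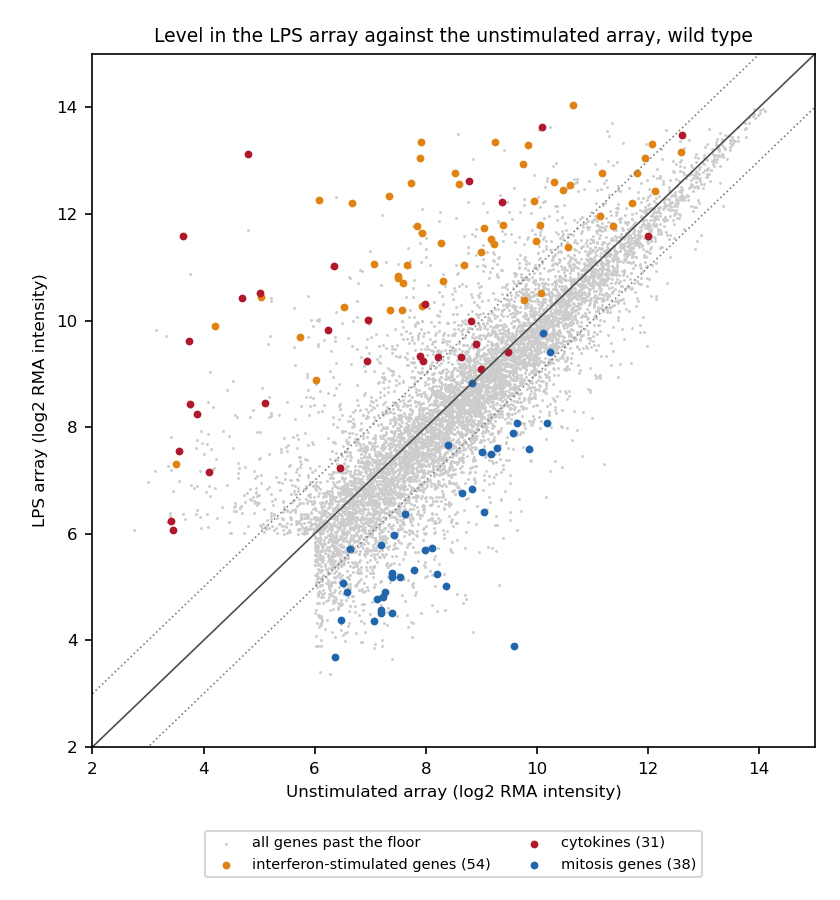
Level in the LPS array (vertical axis) against the unstimulated array (horizontal axis) for the 8627 genes past the floor in wild-type cells, log2 RMA intensity, with lines at equality and at 2-fold and with 3 of the gene lists coloured. All 54 interferon-stimulated genes lie above the line of equality, and 37 of 38 mitosis genes lie below it. Of these, 4 and 23 passed the floor in 1 array alone, which fixed their side of the line.

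Among antiviral genes and chemokines the difference was smaller where the level before LPS was higher. Interferon-stimulated genes that read under the floor without LPS had a median difference of 4.68 (4 genes), those from 6 to under 9 one of 3.54 (24 genes), those from 9 to under 12 one of 1.95 (23 genes), and those at 12 or more one of 0.57 (3 genes). Their median levels in the LPS array ran the other way, at 9.80, 11.17, 12.20 and 13.16. For chemokines the medians in the same order were 5.17 (2 genes), 2.14 (4 genes), 1.36 (13 genes) and 0.47 (4 genes). Cytokines did not keep that order, with 4.52 (12 genes), 1.37 (14 genes), 2.84 (3 genes) and 0.23 (2 genes), and the GTPase genes were flat, with 2.40 (1 gene, from 6 to under 9) and 2.33 (9 genes, from 9 to under 12). Genes under the floor without LPS passed only through the LPS array and had to differ, and the difference and the unstimulated level share an array. The highest LPS reading among antiviral genes was the 14.04 of Rsad2.

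Effector enzymes for which activated macrophages are known were among the highest genes. Nos2, the inducible nitric oxide synthase, went from 3.75 to 10.87. Gch1, which makes the cofactor that this enzyme needs, went from 8.55 to 11.04, and the arginine transporter Slc7a2 from 11.29 to 13.00. Ch25h, which makes an antiviral oxysterol, went from 6.38 to 12.31. Acod1, which makes itaconate, was bright without LPS at 11.55 and read 13.32 with it. Arg1, which competes with Nos2 for arginine, read 13.30 and 12.58, while the mitochondrial form Arg2 went from 7.23 to 8.85. Of 21 genes of arginine, nitric oxide, itaconate and pterin metabolism 8 were 2-fold or more higher and 1, the spermidine synthase gene Srm (-1.95), lower, with a median of 0.22, or 0.72 without less specific probe sets. Subunits of the oxidase that makes superoxide lay within 2-fold: Cybb differed by 0.22, Cyba by -0.10 and Ncf1 by -0.44.

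In prostaglandin synthesis the inducible steps stood apart from the rest. Ptgs2, the inducible cyclooxygenase, went from 9.40 to 13.20 on its brightest probe set and differed by 6.56 on the other. Ptges, which makes prostaglandin E2, went from 4.97 to 7.91, and Pla2g4a, which frees arachidonic acid, differed by 1.09. Enzymes of other eicosanoids were lower: Hpgds (-1.84), the prostaglandin D synthase, Lta4h (-1.39), the leukotriene enzyme, and Tbxas1 (-0.97), the thromboxane synthase, the last just within 2-fold. The count for the 15 genes was 3 higher (20.0%) and 4 lower (26.7%).

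The gene of iron export was lower and that of its hormone higher. Slc40a1, ferroportin, the only known iron exporter, went from 11.46 to 8.94. Hamp, which encodes hepcidin, the peptide that removes ferroportin from the membrane, went from 3.32 to 9.71, and its 2 probe sets differed by 6.18 and 6.39. Lcn2, which binds bacterial siderophores, went from 5.22 to 10.42. Importers were higher, Slc11a2 by 1.79 and Slc39a14 by 1.65, whereas Tfrc, the transferrin receptor, differed by -0.95. Storage and heme breakdown lay within 2-fold, with Fth1 at 0.01 and Hmox1 at -0.03. Of 17 iron and heme genes 5 (29.4%) were higher and 4 (23.5%) lower by 2-fold or more.

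Genes for signals to T cells were higher where they encode costimulators. Cd40 went from 8.58 to 13.50, with its 3 probe sets between 4.84 and 5.34. Cd80 (2.37), Cd86 (2.10), Cd83 (2.09) and Tnfsf9 (2.31) followed. Vsir, which encodes the inhibitory receptor VISTA, went from 9.51 to 6.41, and Havcr2, TIM-3, differed by -1.88. The peptide transporter genes Tap1 and Tap2 were higher by 1.75 and 1.59, and Nlrc5, the class I transactivator, by 1.68. Class II genes lay close to 0, with H2-Ab1 at 0.03 and Cd74 at -0.02, and their transactivator Ciita differed by -1.04. Over the 29 genes 10 (34.5%) were higher and 3 (10.3%) lower.

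Cell death and inflammasome genes had 9 of 27 members higher (33.3%) and 2 lower (7.41%). Casp4, the murine caspase that binds cytosolic LPS, went from 8.08 to 11.05, and Nlrp3, the inflammasome sensor, from 9.04 to 11.15. Fas was higher by 2.33, Nod1 by 2.68, Cflar, the FLIP inhibitor of caspase activation, by 1.79 and Mlkl, the executioner of necroptosis, by 1.75. Casp1 (0.99) and Gsdmd (0.85) lay just within 2-fold, and the adaptor Pycard differed by -0.21. Bcl2 (-1.82) and Casp9 (-1.83) were the lower members.

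Among proteases, inhibitors and coagulation genes 8 of 25 were higher and 3 lower. Serpinb2, the plasminogen activator inhibitor of macrophages, went from 7.29 to 11.09, Adamts4 from 5.04 to 8.74 and Timp1 from 9.23 to 11.25. Procoagulant and anticoagulant receptors went apart, F3, tissue factor, differing by 1.21 and Thbd, thrombomodulin, by -2.08. Of 13 complement genes Cfb, of the alternative pathway, was higher (1.69) and the receptor C3ar1 lower (-1.49). That is 7.69% on each side, below the shares of all genes. C1qa (-0.72) and C1qb (-0.14) lay within 2-fold.

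Of 32 surface receptor genes for uptake 4 (12.5%) were higher and 6 (18.8%) lower, near the 9.86% and 14.3% of all genes, with a median of -0.36. Clec4e, the Mincle receptor for mycobacterial glycolipid, went from 10.29 to 12.89, and Marco from 7.44 to 9.83. Scarb1 (-1.40), Stab1 (-1.17) and Itgb5 (-1.84), which serve uptake of lipoprotein and dying cells, were lower, while Mertk, also a receptor for dying cells, was higher by 1.08. Of 23 adhesion genes 3 (13.0%) were higher, among them Vcam1 (2.30), and 3 lower, among them Itga6 (-2.06), also near the shares of all genes.

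**Figure D3:**
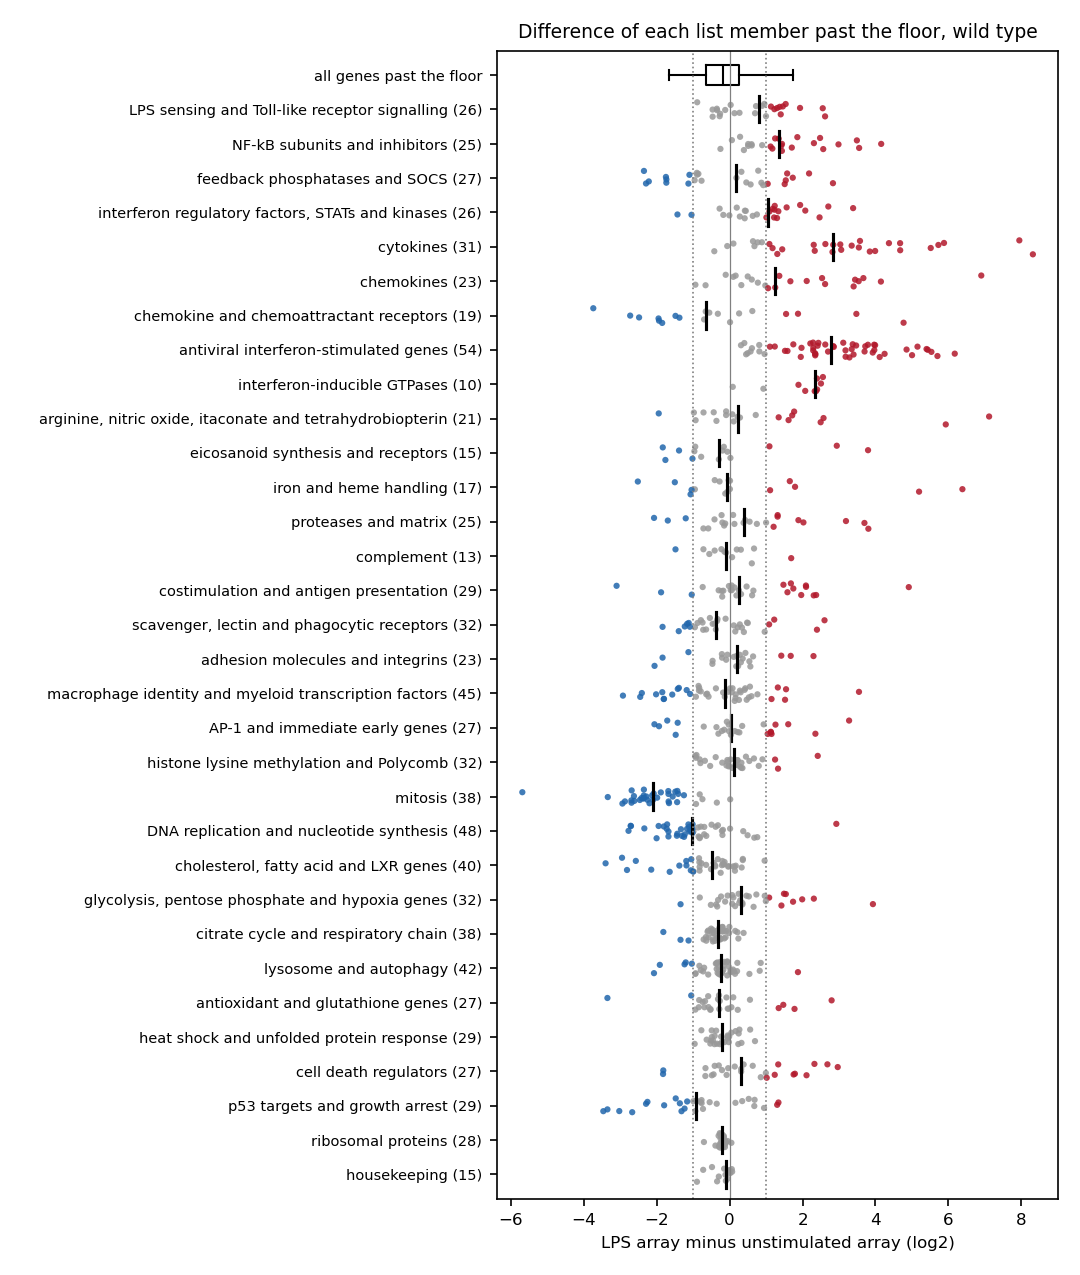
Difference between the LPS and the unstimulated array (log2) for each member past the floor of the 32 pathway lists, with the number of such members in brackets, members 2-fold or more higher or lower coloured, and the list median as a bar. The box at the top shows all 8627 genes (quartiles, with whiskers from the 5th to the 95th percentile and a median of -0.19), against which interferon-stimulated genes (median 2.77) and mitosis genes (median -2.12) stand at opposite ends.

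Of 45 genes of macrophage identity, mostly transcription factors with a few surface receptors, 12 (26.7%) were 2-fold or more lower and 5 (11.1%) higher, beside 14.3% and 9.86% of all genes. Cebpa, a myeloid lineage factor, went from 11.98 to 9.52, while Cebpb, which serves inflammatory genes, went from 10.47 to 11.62. Spi1 (0.14), which encodes PU.1, lay within 2-fold, as did Csf1r (-0.64), the M-CSF receptor, and Adgre1 (0.25), a macrophage surface marker. The inhibitors of differentiation Id1 (-2.41) and Id3 (-2.93) were lower and Id2 (0.16) was not. The nuclear receptor genes Rxra (-1.81) and Pparg (-1.42) were lower, and Nr4a3, an orphan receptor of immediate response, went from 7.99 to 11.54. Mef2c (-1.85) and Fli1 (-1.80) were lower.

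Immediate early genes, which are known to peak soon after a stimulus, were mixed at 4 h. Fos went from 11.86 to 9.92, Egr1 from 11.81 to 10.41, Egr3 from 7.78 to 5.76 and Jun from 10.98 to 9.50. Junb (1.61) and Atf3 (1.13) were higher, as was Gadd45b (2.35). In the Myc network Myc went from 8.72 to 6.66, and Mxd1, which competes with Myc for its partner, was higher by 3.28. That partner, Max, went from 9.80 to 11.06, whereas Mnt differed by -1.71. The AP-1 and immediate early list had 8 of 27 members higher (29.6%) and 5 lower (18.5%).

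Of 32 genes that write, read or erase histone lysine methylation 3 (9.38%) stood higher by 2-fold or more, near the 9.86% of all genes, and none lower. They were Setdb2 (6.98 to 9.39), a methyltransferase of histone H3, Jarid2 (1.33), a Polycomb partner, and Kdm4a (1.25). Kdm6b, the gene targeted in the other genotype, went from 10.33 to 11.23, a difference of 0.90 that fell short of 2-fold, on a probe set of the less specific class. Its relative Kdm6a differed by -0.20. The Polycomb methyltransferase gene Ezh2 differed by -0.93, its relative Ezh1 by 0.07 and Suz12 by -0.03.

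Cell division genes mostly stood lower in the LPS array. Of 48 mitosis genes measured, 38 passed the floor, and 33 of these were 2-fold or more lower and none higher, with a median of -2.12 (-1.68 over all 48). In 23 of the 38 the lower reading was under the floor, so that these sizes rest on a background reading. These 23 passed the floor through the unstimulated array alone and had to read lower. Cdc25b, the phosphatase that starts mitosis, went from 8.37 to 5.02. Cenpa, the histone of the centromere, went from 8.19 to 5.25, Cdc20, the activator of the anaphase-promoting complex, from 7.39 to 5.27, and Kif11, the spindle motor, from 7.23 to 4.81. Cyclin A2 (Ccna2) and cyclin B2 (Ccnb2) differed by -2.63 and -1.44, Aurka by -2.36 and Top2a by -1.67. The exceptions within 2-fold were Mad2l1 (0.01), Mki67 (-0.35), Tpx2 (-0.75), Arhgap11a (-0.82) and Cenpe (-0.92).

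Arhgap19, a GTPase-activating protein of cytokinesis in lymphocytes, was the lowest of all 8627 genes, at 9.59 without and 3.90 with LPS, and its unstimulated level was 12.1-fold above the floor. It differed by more than any other mitosis gene, the next being Cdc25b (-3.34). Of 48 genes for DNA replication and nucleotide synthesis 27 were lower and 1 higher, with a median of -1.03. Of the 48, 10 passed the floor through the unstimulated array alone and had to read lower. Tk1, the S-phase thymidine kinase, went from 8.45 to 5.67, and Mcm2 to Mcm5 and Mcm7, of the replicative helicase, differed by -1.95 (Mcm2), -1.72 (Mcm3), -1.13 (Mcm4), -1.02 (Mcm5) and -1.31 (Mcm7). The remaining subunit, Mcm6, differed by -0.50. Pcna (-0.32) lay within 2-fold, as did Cdkn1a (0.68), the p21 inhibitor. Ccnd2, a D-type cyclin, was the exception on the higher side, from 9.10 to 12.03, while Ccnd1 differed by -0.70. In bulk RNA fewer cells of a type and less RNA per cell cannot be told apart.

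Genes linked to p53 and growth arrest had a median on the same side as the division genes. Of 29 past the floor 12 (41.4%) were lower and 2 (6.90%) higher, with a median of -0.92. Of the 29, 4 passed the floor through the unstimulated array alone and had to read lower, Arrdc3 and Sesn1 among them. Arrdc3 (9.38 to 5.92), Sesn1 (9.11 to 5.76), Zmat3 (9.68 to 6.65) and Ypel3 (8.72 to 6.04) were the lowest. Foxo3, a factor of quiescence and stress resistance, went from 10.95 to 8.70, and Trp53inp1 from 11.49 to 9.19. The p53 inhibitor Mdm2 (0.68) lay within 2-fold. Ccng2 (1.34) and Gas7 (1.30) were higher.

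In lipid metabolism no gene of 40 was 2-fold or more higher and 12 were lower, with a median of -0.48. Of the 40, 7 passed the floor through the unstimulated array alone and had to read lower, Lpin1 and Stard4 among them. The lowest were Lpin1 (7.92 to 4.51), the phosphatidate phosphatase lipin 1, Dhcr7 (10.32 to 7.36), of the last step of cholesterol synthesis, Scd2 (10.99 to 8.18), a fatty acid desaturase, and Stard4 (8.16 to 5.59), a sterol carrier. Enzymes higher up the same route lay within 2-fold, with Hmgcs1 at -0.44 and Idi1 at -0.03. Of the cholesterol exporters Abcg1 differed by -1.07 and Abca1 by -0.82.

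In glycolysis some genes of sugar entry and of regulated steps stood higher. Slc2a6, a sugar transporter of the inflamed macrophage, went from 6.78 to 10.71, and Pfkfb3, which makes the activator of phosphofructokinase, from 8.34 to 10.65, whereas its relative Pfkfb4 differed by -1.35. Hk1 (1.42), Hk3 (1.08) and Pfkp (1.49) were higher. Aldoa (-0.06), Pgk1 (0.07), Ldha (0.15) and Pkm (-0.37), of the steps below, lay within 2-fold. Over the whole list, which also holds pentose phosphate and hypoxia genes, counts were 8 higher and 1 lower of 32. The median was 0.32, or 0.66 without less specific probe sets. In the citrate cycle and respiratory chain 35 of 38 genes lay within 2-fold, and those lower were Idh1 (-1.35), Idh3a (-1.13) and Ppargc1b (-1.82), a coactivator of mitochondrial genes.

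Lysosome and autophagy genes were mostly flat, with 1 of 42 higher (2.38%) and 5 lower (11.9%), beside 9.86% and 14.3% of all genes. The higher one was Mcoln2 (1.87), a calcium channel of endolysosomes, and the lower ones included Rragd (-2.08), a nutrient-sensing GTPase, its regulator Flcn (-1.24) and Atg7 (-1.92), of autophagosome formation. Antioxidant genes had 4 of 27 higher (14.8%) and 2 lower (7.41%), beside the same shares of all genes, with 19 below 0 and a median of -0.29. The highest were metallothionein Mt2 (2.80) and the cystine transporter Slc7a11 (1.78), and the lower ones were Sesn1 (-3.35), also in the p53 list, and Gsta3 (-1.06), while the NRF2 targets Nqo1 (-0.85) and Gclm (-0.68) were within 2-fold. None of 29 heat shock and unfolded protein genes, 28 ribosomal protein genes and 15 housekeeping genes differed by 2-fold. Their medians were -0.21, -0.20 and -0.10, beside -0.19 over all genes, and Actb read 0.02 higher.

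Genes outside the lists held 1700 of the 2084 that were 2-fold or more apart. U90926, an RNA of unassigned function, was the highest of them (3.15 to 9.83), followed by Cav1, caveolin 1 (5.21 to 10.36), the protease gene Htra4 (4.12 to 9.03) and the uridine phosphorylase gene Upp1 (6.29 to 11.01). Mir155hg, a miRNA host transcript, went from 3.75 to 8.38. Ptx3, a soluble pattern recognition molecule, went from 8.85 to 13.03, and Hcar2, the niacin receptor, from 6.08 to 9.98. On the lower side stood Pald1 (8.84 to 4.16), Rab3il1 (8.67 to 4.70), Rnf144b (8.73 to 4.78), the amino acid transporter gene Slc43a2 (11.21 to 7.31) and Tsc22d3, the glucocorticoid-induced leucine zipper (7.76 to 4.33). Pvt1, the non-coding neighbour of Myc, went from 7.08 to 3.94.

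Some of the higher genes lay side by side, in families and among unrelated neighbours. In the RefSeq order of the 8613 genes placed on the assembly, counting only genes past the floor, there were 30 runs of 3 or more adjacent genes that were all 2-fold or more higher, with 109 genes, and the longest held 8. Lower genes formed more runs, 47 with 149 genes, but were also more numerous, at 1233 against 851. How many runs such counts would give by themselves was not worked out. The longest lower run held 4 genes, and 5 runs of 5 or more were on the higher side against 0 on the lower. The longest run, on chromosome 1, held Fcer1a, Aim2, Ifi213, Ifi209, Ifi207, Ifi204, Mndal and Ifi203, mostly PYHIN DNA sensors, from 1.02 (Aim2) to 4.32 (Ifi213). The next, with 6 genes on chromosome 2, spans more than 1 gene family and held Dpp4, Fap, Ifih1, Gca, Galnt3 and Stk39 (1.09 to 4.25). Shorter runs also joined unlike genes, such as Adprm, Sco1 and Gas7 on chromosome 11 (1.18 to 2.37). On chromosome 19 lay Ifit2, Ifit3, Ifit1bl1, Ifit1bl2 and Ifit1 (3.04 to 6.18), and on chromosome 5 Oas2, Oas3, Oas1c, Oas1b and Oas1a (2.11 to 3.72). Also on chromosome 5 were Cxcl9, Cxcl10 and Cxcl11 (3.40 to 6.90), and Cxcl3, Cxcl1, Cxcl2 and Ereg (1.05 to 4.15). A run on chromosome 13 held Serpinb1a, Serpinb6b, Serpinb9, Serpinb9b and Serpinb1b (2.97 to 4.26), serine protease inhibitors. Copies of these families may share probes and are then not separate measurements. Among lower runs was Cd300a, Cd300lb, Cd300ld and Cd300c2 on chromosome 11 (-2.54 to -1.02), which encode lipid-binding receptors of myeloid cells.

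Promoters differed along the response in base composition. A RefSeq promoter of 300 bases, 250 before and 50 after the start, was found for 7088 of the 8627 genes (82.2%). The CpG ratio, observed over expected CpG pairs, reached 0.6 in 76.9% of these, against 36.5% of all 27025 promoters. By size of the difference that share was 14.3% of 35 genes higher by 16-fold or more, 33.8% of 77 at 8 to 16-fold, 45.9% of 146 at 4 to 8-fold, 63.2% of 410 at 2 to 4-fold and 79.7% of 5416 within 2-fold. On the lower side it was 78.8% of 822 genes at 2 to 4-fold, 71.6% of 148 at 4 to 8-fold and 52.9% of 34 at 8-fold or more. CpG-poor promoters were thus most frequent among the genes with the largest differences. TATAAA, the TATA box, on either strand, was in 20.0% of those higher by 16-fold or more, 6.0% of those within 2-fold and 14.2% of all promoters.

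The interferon motif, GAAA and GAAA separated by any 2 bases, in 3.49% of all promoters and 3.30% of those of genes past the floor, was in all 7 GTPase genes with a promoter entry and in 42.9% of 42 antiviral genes. Of the 234 genes that carry it 26.9% were higher and 7.69% lower, against 9.42% and 14.2% of the 7088. Ifit1, Irgm1 and Gbp2, printed above, are examples. The NF-kB-like motif, GGGA and TCC separated by any 3 bases, in 4.55% of all promoters, was in 6 of 15 chemokine promoters (40.0%), Cxcl1 among them, and in 13.6% of 22 cytokine promoters, with Il6 and Ifnb1. Over its 379 carriers 11.3% were higher, close to the 9.42% of the background. TGANTCA, an AP-1 site, had 18.3% of 350 carriers higher.

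Mitosis promoters carried TTTGAA in 78.1% of 32 cases and CCAAT in 78.1%, and both in 68.8%, as in Arhgap19, Kif11, Top2a and Cdc20. Over all promoters these shares were 18.1%, 37.9% and 7.12%. Of 334 genes with both motifs 23.4% were lower and 8.98% higher. TTTCCCGC, an E2F site, was in 15.4% of 39 promoters of replication genes against 1.11% of all, and 23.1% of its 156 carriers were lower. CCAAT, with or without TTTGAA, was in 80.0% of 30 lipid metabolism promoters. It was in the same share of 25 promoters of heat shock and unfolded protein genes, none of which differed by 2-fold. A match is a description of letters, not of a bound site or a cause, and a promoter without one says only that these letters are not in this window.

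**Figure D4:**
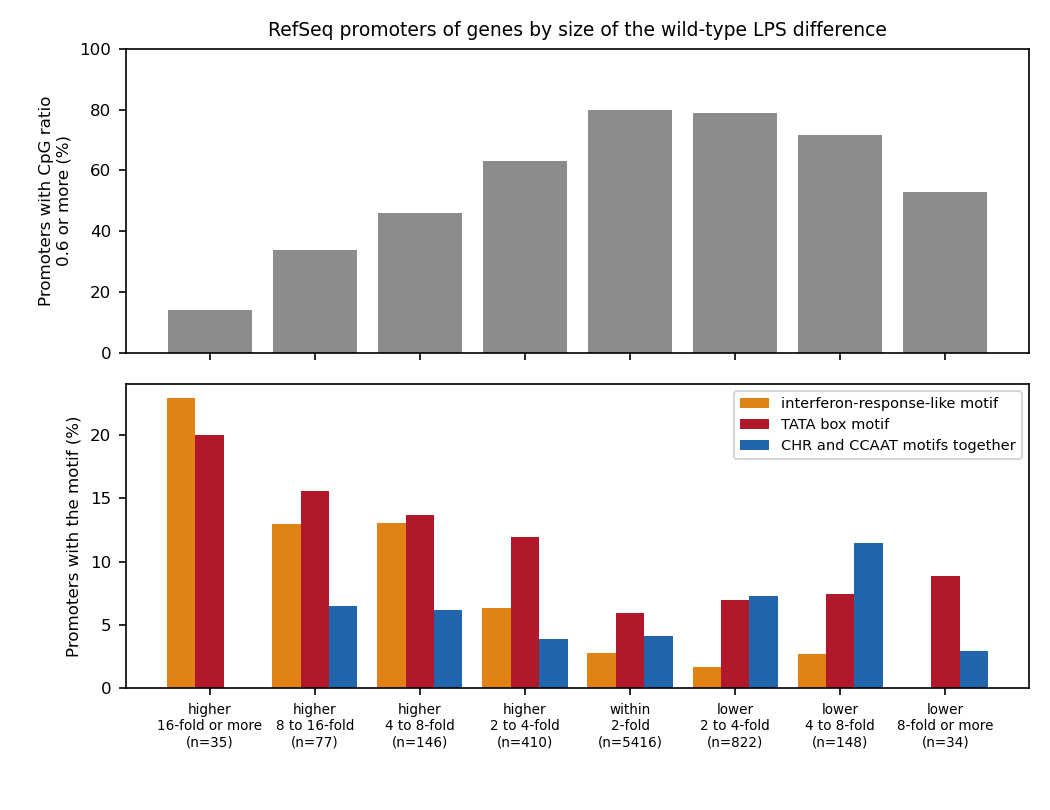
Share of RefSeq promoters with a CpG ratio of 0.6 or more (top) and with the interferon-response-like, TATA or paired CHR and CCAAT motif (bottom), in percent, by size of the wild-type LPS difference, with the number of promoters under each class. The CpG share runs from 14.3% in the class higher by 16-fold or more to 79.7% within 2-fold and 52.9% in the lowest class.

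As a check of the cells, 17 of the 18 macrophage markers were above the floor on both wild-type arrays, Cx3cr1 alone falling under it with LPS, and their summed linear intensity was 82765 without and 79893 with LPS. Granulocyte markers had a summed linear intensity of 3631 and 3690 on the wild-type arrays, with 4 and 6 of 13 measured at the floor or above, and stromal markers 5244 and 5306, with 5 and 8 of 18. Markers of mast cells, basophils and eosinophils summed to 952 without and 2164 with LPS, with 4 and 7 of 14 above the floor. In that list Hdc, the histidine decarboxylase gene, went from 6.07 to 9.53, Cpa3 from 4.78 to 6.77, Cma1 from 4.67 to 6.52 and Fcer1a from 5.76 to 7.31. Cpa3, Cma1 and Fcer1a passed the floor through the LPS array alone and had to read higher. The 3 remaining members past the floor lay within 2-fold, the lowest at -0.77, and the median over all 14 measured was 0.74. Hdc made the largest part of the rise in the sum. Dendritic cell markers summed to 6194 and 11182, with 5 and 6 of 11 above the floor, and 4 of those 6 (Ccr7, Tcf4, Bst2 and Dpp4) were 2-fold or more higher. Of the 6, 1 passed through the LPS array alone, and Bst2 is also in the antiviral list. The median was 1.31 over the 6 and 0.31 over all 11 measured. Erythroid and megakaryocyte markers summed to 9766 and 7452, with 4 of 11 above the floor on each array. The part of such cells in the genes described above was not tested. The 3' minus 5' difference of the actin control was 0.65 and 0.66, and the summed marker level of T, B and NK cells 610 and 684.

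The knockout arrays gave the only other LPS pair, which shares no array with the wild-type pair but differs in genotype. They stand apart in content, with summed linear intensities of 36290 and 35241 for granulocyte markers and 36550 and 30345 for stromal markers, whose part in the following was not tested. Agreement grew with the size of the wild-type difference. Of 316 genes higher by 1 to 1.5 in wild type 64.6% reached 2-fold on the same side in the knockout pair too, of 191 at 1.5 to 2 75.4%, of 194 at 2 to 3 88.7%, of 102 at 3 to 4 90.2% and of 48 at 4 or more 93.8%. On the lower side the shares were 53.3% of 705, 76.3% of 291, 85.1% of 194, 97.5% of 40 and 3 of 3. Of the 6543 genes within 2-fold in wild type, 4.55% were higher and 6.68% lower there, and over all 8627 genes 11.1% and 14.4%.

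The 3 genes higher by 4 or more in wild type and not by 2-fold in the knockout pair were Serpinb1a (4.26 against -0.01), Zfp558 (4.06 against -0.14) and Lcn2 (5.20 against 0.63). Serpinb1a was under the floor in unstimulated wild-type cells but already above it in unstimulated knockout cells, and stayed there with LPS. Zfp558 lay under the floor on both knockout arrays, so that its knockout difference compares background readings. Mitosis genes had a median of -1.71 in the knockout pair, with 34 of the 38 lower, and antiviral genes one of 3.43, with 48 of the 54 higher. Chemokines (4.06) and GTPases (4.78) had larger medians there than in wild type (1.25 and 2.35), from lower starting levels. Their summed linear intensities without LPS were 22425 (chemokines) and 1167 (GTPases) in the knockout against 58070 and 10215 in wild type, and with LPS 111390 and 41427 against 126702 and 38060. Among single genes, Cebpa (-2.46 in wild type, -4.18 in the knockout pair), Arhgap19 (-5.69 and -4.78) and Slc40a1 (-2.52 and -3.64) stood on the same side in both. Id1 (-2.41 and 0.16), Socs2 (-2.22 and 0.34), Egr3 (-2.02 and 0.11), Fos (-1.94 and -0.19) and Thbd (-2.08 and -0.04) were lower in wild type and within 2-fold in the knockout pair, and Inhba (2.84 and 0.56) and Csf3 (2.82 and 0.21) were higher in wild type and within 2-fold there. These differences between the pairs were not tested.

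**Figure D5:**
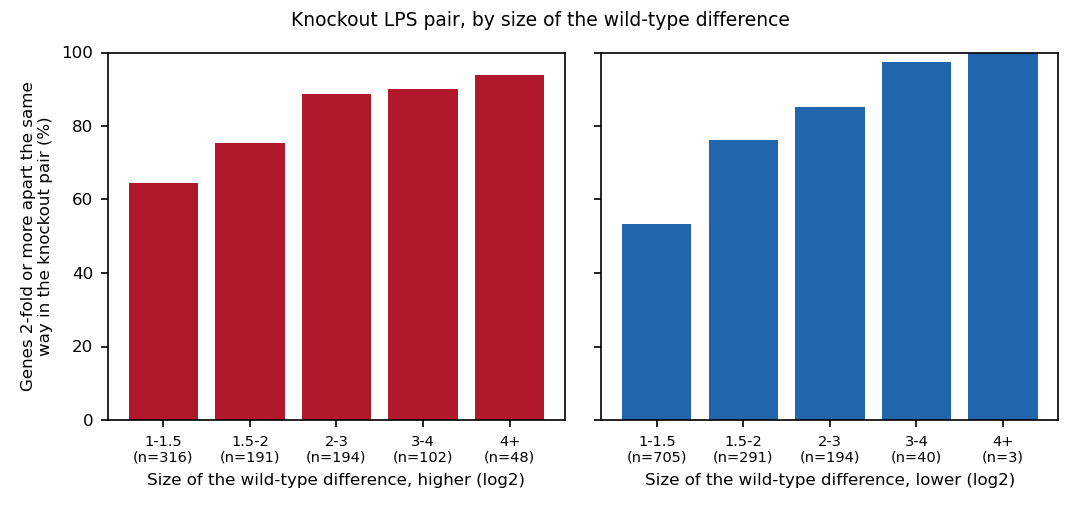
Share of genes (percent) that were 2-fold or more apart in the same direction in the knockout LPS pair, by size of the wild-type difference (log2), for genes higher (left) and lower (right) in wild type, with the number of genes under each bar. The share runs from 64.6% to 93.8% on the higher side and from 53.3% to 3 of 3 genes on the lower.

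Separate probe sets of 1 gene gave an internal check of these calls. Of 768 genes 2-fold or more apart with at least 2 probe sets past the floor, all other probe sets were also 2-fold or more apart the same way in 525 (68.4%), and all had the same sign in 740 (96.4%). In 4 genes another probe set was 2-fold or more apart the other way: Cbl (-1.32 and 1.24), Nat10 (-1.46 and 1.13), Pacc1 (1.20 and -3.34) and Tsc22d1 (up to 2.02 and down to -1.17). For these the direction depends on the probe set. Among genes given above as within 2-fold, another probe set was past 2-fold the same way for Trim25 (3.20), Il1rn (2.16), Gbp7 (2.02), Nfkbia (1.65), Mdm2 (1.23), Cdkn1a (1.01), Cxcl14 (-1.94), Gclm (-1.40), Cenpe (-1.32) and Igf1 (-1.28). Among those given as past it, another lay within 2-fold for Atg7, C3ar1, Dusp3, Hk3, Jun, Mef2c, Slc11a2, Slc7a11 and Zfp36l2.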

How the data were processed

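RNA of 4 mouse macrophage cultures was hybridised to Affymetrix arrays, 1 array a group. The authors deposited a log2 value for each probe set, computed with RMA per the submitters' processing notes. Its version is not given in the sources used, nor is which arrays were processed together. RMA is meant to bring all arrays to one distribution, so that differences are relative to the array as a whole. The array medians of both wild-type arrays were 4.19 and 4.16, but 15095 probe sets reached the floor in the unstimulated array and 14483 in the LPS array. The 18 probe sets for bacterial control sequences past the floor differed by a median of 0.19, against the -0.19 of the genes. Of 45101 probe sets 34945 name 1 gene, and 34741 of these matched the RefSeq gene table of GRCm38.p6 by gene identifier. Probe sets with several genes or none were left out.

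The difference of both wild-type values was taken for each gene with Python 3.11.15, numpy 2.4.6 and pandas 2.3.3. Counts were tested on simulated differences, and the search for the NF-kB-like motif on a made-up sequence and its reverse complement. Without replicates there is no p-value. The number of arrays limits the precision, and nothing says whether the cultures came from separate animals. Genes of 32 pathway lists and 7 marker lists (1188 genes, of which 1067 were measured and 917 passed the floor) were named by a rule: fixed marker and effector genes, the list members with the largest or opposing differences or a role to describe, the 30 highest and 30 lowest genes outside the lists, genes in runs of neighbours and genes with opposed values. The members, lists and motifs were chosen with earlier results of these data known. Alternatives were another floor, the mean of probe sets, specific probe sets, equal distributions, centring, an added constant and a 4-fold threshold. Some listed genes are left unreported.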

Additional observations from a re-analysis of the deposited data

Results flagged for a closer look

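Of the genes 2-fold or more apart in wild-type cells, 5 were 2-fold or more apart in the opposite direction in the knockout pair. Myc differed by -2.06 in the wild-type pair and by 1.33 in the knockout pair. Plau, which encodes urokinase, differed by -1.70 and 4.30, from 9.77 to 8.08 in wild type and from 5.36, under the floor, to 9.65 in the knockout. Rnase6 differed by -1.24 and 1.79, Ifngr2 by 1.09 and -1.33, and Galnt3 by 1.31 and -1.04. Both knockout readings of Galnt3 (5.73 and 4.69) lay under the floor, as did its unstimulated wild-type reading (5.92), so that its opposite sign compares background readings. Each rests on 1 array a group, and the difference between the genotypes was not tested.

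Probe sets outside the comparisons also differed. Of 1283 probe sets with no gene name past the floor, 227 were 2-fold or more higher with LPS (17.7%) and 162 lower (12.6%), beside 9.86% and 14.3% of the genes, and the largest difference was 5.98. Of 477 probe sets with several gene names past the floor, 40 were higher (8.39%) and 33 lower (6.92%).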

How the results depend on the processing

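Without replicates the sizes have no test. No paired analysis was possible because each group holds 1 array, and for the same reason no array could be left out. With a 4-fold threshold 344 genes were higher and 237 lower. The lower count moved from 1233 to 696 with a floor of log2 8, to 788 with the mean of the probe sets of a gene and to 649 with 64 added to the linear values, where the higher counts were 645, 754 and 643. The higher share of all called genes was 40.8% and lay between 40.1% and 49.8% over the alternatives other than the threshold. With equal distributions 917 were higher and 1073 lower. After centring the counts were 974 and 1003, so that there and with 64 added hardly any excess of lower genes was left. An excess of lower genes at 2-fold thus depends on the setting. No list median and no named gene went from 2-fold or more on 1 side to 2-fold or more on the other under the alternatives run. Smaller values could change sign. The erythroid and megakaryocyte median went from -0.36 to 0.14 with no floor, and centring moves named genes just under 0 above it. With equal distributions or centring, all 39 list medians and all 357 named genes moved by no more than 0.22, the median standard deviation between probe sets. With 64 added, 170 of 357 named genes and 6 of 39 list medians moved by more, and with the mean of probe sets 92 of 323 and 6 of 39. The mitosis median was -1.24 with 64 added and -1.68 with no floor, and the cytokine median 1.84 and 2.33. Signal over background limits genes near the floor.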
